A study of Mus musculus with 126 samples.

Results

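The data were colon transcriptomes of mice on a low-salt diet that were fed only by day or only by night, compared at the same time of day. All libraries carrying the 2 low-salt feeding labels were taken, 36 of the 126 in the study: 18 low salt night fed and 18 low salt day fed. Each group held 3 libraries at each of 6 times, 4 h apart, from ZT0 to ZT20. ZT is zeitgeber time, the hours since lights on, under 12 h of light and 12 h of dark. The libraries came from colons of 8-week-old male C57BL/6 mice with no mutation or drug named in the labels. Both groups ate the low-salt diet, and their labels differ by the feeding window. The sources used here do not give the clock hours of the feeding windows or say whether a library was 1 mouse or a pool, so p-values rest on the spread between libraries, which may be partly technical. A second pair of groups on a high-salt diet, fed by day or by night with the same 36-library layout, served as the comparison.

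The mammalian clock is a transcriptional loop. BMAL1 (gene Arntl) with CLOCK or NPAS2 binds E-box sequences and switches on the Per, Cry, Nr1d1, Nr1d2, Ciart, Dbp and Tef genes, whose products then repress the activators or drive output rhythms. REV-ERB proteins (Nr1d1, Nr1d2) and ROR proteins compete at a shared element that controls Arntl, Npas2 and Nfil3. Light sets the master clock in the brain, whereas meal times act strongly on the clocks of peripheral organs such as the gut. The colon reabsorbs salt and water, renews its lining by daily waves of cell division, and holds off the microbiota with mucus and secreted antimicrobial proteins.

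Levels are FPKM, fragments scaled to transcript length and to the library total, rescaled between libraries, so that levels can be set side by side between genes. A mean difference, called a level difference here, is the day fed minus the night fed mean over the 6 times on the log2(FPKM + 0.5) scale, a scale that understates changes of genes near or below 0.5 FPKM. Rhythm is the 24 h cosine curve through the 6 time means. Its amplitude is the height of the peak above the mean in log2 units, and the rhythm difference is the amplitude of the curve left when the night fed curve is subtracted from the day fed curve. A peak shift is day fed minus night fed, counted the shorter way round the 24 h cycle. A later peak and a longer advance therefore cannot be told apart. A call means an adjusted p of at most 0.05 over all 11377 rows tested.

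The libraries carried the epithelium. Median levels were 369 FPKM of Krt20, 487 of Muc2 and 518 of Epcam in night fed libraries and 316, 467 and 480 in day fed ones. Smooth muscle was absent by its defining markers: Myh11 reached at most 0.0351 FPKM, and 6 of 7 muscle markers stayed under 0.5 FPKM in every library. The sum of FPKM ran from 383694 to 660895 per library, and the read depth is unknown because the files hold no counts. Night fed libraries differed more from their replicates than day fed ones did, by a median absolute difference of 0.228 against 0.156 log2 in the middle library of each group. The one farthest from its replicates was night fed replicate 2 of ZT0, which had the lowest scale factor of the 36 (0.783) and a median difference of 0.395 log2. In bulk tissue, fewer cells of a type and less RNA per cell cannot be told apart.

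Clock genes ran about 9 h earlier and with lower amplitude in day fed colons. The number of rows whose rhythm differed was 4388 of 11377 (38.6%), while 15 of the 16 clock genes tested did. Another 3 clock genes of the list, Rora, Bhlhe41 and Hlf, had levels too low to be tested. The curve passed in night fed colons for 2573 rows (22.6%) and in day fed colons for 4798 (42.2%), and for 15 clock genes in each. The part of the wider spread among night fed libraries in these counts was not tested. Over the 14 clock genes rhythmic in both groups the peak moved by a mean of -9.23 h (SD 0.51 over the 3 replicate numbers), with single genes between -10.7 and -7.00 h. The median clock amplitude was 1.18 by night feeding and 0.64 by day feeding. No clock gene had a called level difference (level calls over all rows were 379, 3.33%), and the median level difference of the 16 was 0.08 against -0.01 for all rows.

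**Figure D1:**
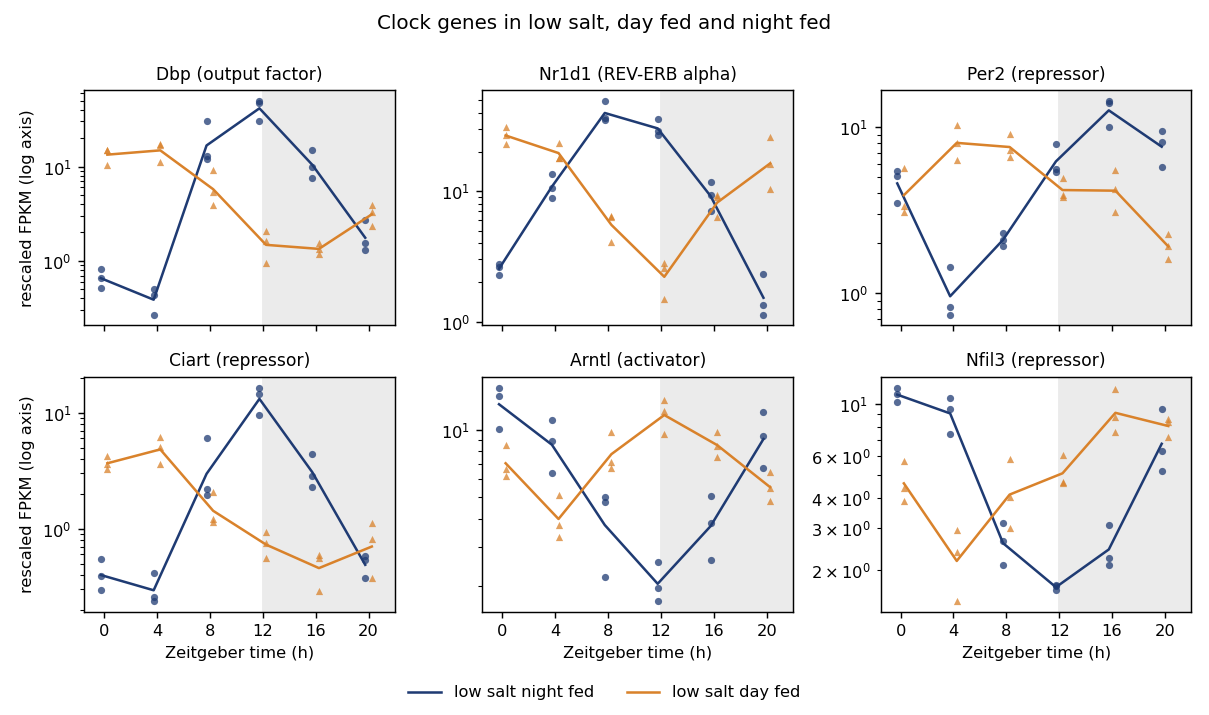
Rescaled FPKM (log axis) of clock genes against ZT, with circles for night fed libraries, triangles for day fed libraries, lines through the geometric mean of 3 libraries and grey for the dark phase. The day fed courses peak earlier and span less than the night fed courses, as for Dbp, with peaks at ZT12.3 and ZT2.69.

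Start regions of 3 clock genes that hold the letters of an E-box or of the REV-ERB and ROR element are printed here, with the match in capitals, from RefSeq on GRCm38.p6, since the loop acts through these elements. Ciart, a repressor of BMAL1 and CLOCK activity, is shown for chr3:95882229-95882478 on the minus strand, the 250 bases before its start, with 3 E-boxes (CACGTG). For Arntl, chr7:113207529-113207558 on the plus strand, a 30-base stretch, holds the REV-ERB and ROR element AGTAGGTCA, which begins at base 29 after the start. For Nfil3, chr13:52981040-52981289 on the minus strand, the 250 bases before the start hold the same element on the other strand, TGACCTACT.
Ciart: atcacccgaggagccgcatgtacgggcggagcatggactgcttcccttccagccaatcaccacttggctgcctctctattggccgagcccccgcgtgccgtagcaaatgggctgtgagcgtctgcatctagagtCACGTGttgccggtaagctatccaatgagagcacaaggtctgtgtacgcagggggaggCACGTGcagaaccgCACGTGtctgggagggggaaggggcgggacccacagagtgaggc
Arntl: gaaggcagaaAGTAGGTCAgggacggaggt
Nfil3: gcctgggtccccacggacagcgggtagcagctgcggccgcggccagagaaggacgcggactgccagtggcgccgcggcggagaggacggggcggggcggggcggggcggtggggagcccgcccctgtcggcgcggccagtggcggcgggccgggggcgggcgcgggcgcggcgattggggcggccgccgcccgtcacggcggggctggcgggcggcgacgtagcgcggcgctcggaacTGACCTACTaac
In windows of 300 bases (250 before to 50 after a start), searched on both strands, CACGTG was found in 6 of 21 clock windows (genes Bhlhe41, Ciart, Cry1, Per1 and Tef) and in 7.15% of all 32851 windows. AGTAGGTCA was found in 2 clock windows (Arntl and Nfil3) and in 0.192% of all. The D-box TTATGTAA was found in 1 (Per3) and in 0.938% of all. The windows of the other clock genes, Nr1d1, Dbp and Per2 among them, held none of the 3, and these are matches of letters, not measured binding sites.

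Among the activators, Arntl (chr7:113207465-113314126, mm10) was high around lights on in night fed colons and around lights off in day fed colons. Night fed values were 14.1, 10.1 and 15.4 FPKM at ZT0 and 1.72, 1.96 and 2.56 at ZT12. Day fed values were 8.51, 6.21 and 6.69 FPKM at ZT0 and 13.5, 12.1 and 9.59 at ZT12, so that the groups did not overlap at either time and stood in opposite order. The fitted peak moved from ZT23.9 to ZT13.2, a shift of -10.7 ± 0.83 h (SE), and the amplitude was 1.18 ± 0.10 and 0.50 ± 0.10 (adjusted p = 1.64e-12 for the rhythm difference). Npas2, the partner that can replace CLOCK, moved by -10.4 h. Clock itself was the gene whose rhythm difference did not pass (0.28, adjusted p = 0.326).

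Among the repressors, Nr1d1 (chr11:98767932-98775333) showed the strongest statistical support. In night fed colons its values were 49.1, 35.4 and 36.4 FPKM at ZT8 and 2.31, 1.13 and 1.35 at ZT20. In day fed colons they were 6.49, 6.32 and 4.11 FPKM at ZT8 and 16.1, 26.1 and 10.4 at ZT20. The order of the groups thus turned round between these times with no overlap. Its peak moved from ZT9.59 to ZT23.8 by -9.79 ± 0.30 h, with amplitudes of 2.22 ± 0.10 and 1.56 ± 0.10 (adjusted p = 8.62e-26). Per2 (chr1:91415982-91459324), a core repressor that pairs with CRY proteins, had 14.1, 14.4 and 10.0 FPKM at ZT16 and 1.43, 0.825 and 0.741 at ZT4 in night fed colons. In day fed colons it had 4.22, 3.06 and 5.51 FPKM at ZT16 and 6.32, 10.3 and 8.04 at ZT4. Its peak moved from ZT17.0 to ZT6.86 (-10.1 ± 0.57 h, adjusted p = 2.87e-16). Per1, which also responds directly to hormonal and feeding cues, moved least of the 14, by -7.00 ± 0.68 h, and Per3 moved by -9.81 ± 0.53 h. Cry1 moved by -9.47 h and Cry2 by -8.26 h. Bhlhe40 was rhythmic by night feeding (amplitude 0.43) and did not pass by day feeding (0.19, adjusted p = 0.108).

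Among the output factors, Dbp (chr7:45705088-45710203), a D-box activator, had 49.3, 47.6 and 30.2 FPKM at ZT12 and 0.502, 0.431 and 0.270 at ZT4 in night fed colons. In day fed colons it had 0.946, 1.64 and 2.09 FPKM at ZT12 and 17.4, 16.9 and 11.1 at ZT4. These are the same 2 sampling times with high and low exchanged. Its amplitude was 2.82 ± 0.15 and 1.72 ± 0.15 and its shift -9.58 ± 0.40 h (adjusted p = 2.30e-21). Tef, a related factor, had amplitudes of 1.96 and 0.88 and moved by -9.98 ± 0.47 h. Over the whole list, 15 of 16 clock genes had a lower amplitude by day feeding, whereas 40.2% of all rows did, and the median ratio of day fed to night fed amplitude was 0.574.

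The shift of the clock was similar in each replicate number (-9.43, -9.59 and -8.63 h), and leaving out any 1 of the 36 libraries gave -9.32 to -9.09 h. In high-salt mice 14 clock genes were also rhythmic in both feeding groups, with a mean shift of -5.74 h (range -11.65 to 11.26 h) and median amplitudes of 1.18 and 0.51. The difference between diets in the rhythm effect passed for 11 of the 16 clock genes, against 707 rows in all (6.21%). With cosine and sine terms in place of time means, and without libraries of scale factor under 0.6, 108 rows passed. Those libraries include all high-salt night fed ones of ZT8. Among 28 genes compared, the clock genes and the largest rhythm differences, 18 differed between diets at first and 6 in that fit. The diet difference of the clock genes is thus less sure than the count of 11.

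**Figure D2:**
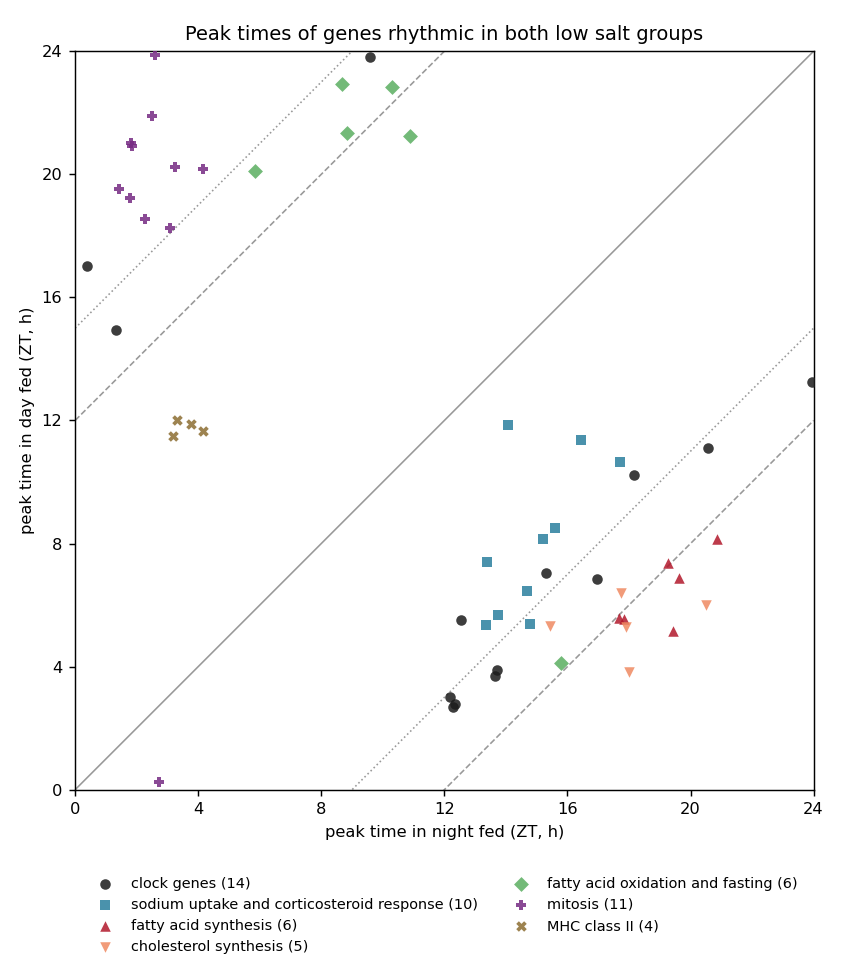
Peak time in day fed colons against peak time in night fed colons (both ZT) for members of 7 gene lists that were rhythmic in both groups, with a solid line for no shift, a dashed line for 12 h and a dotted line for 9 h earlier. The 14 clock genes lie near the dotted line, the lipid synthesis genes near the dashed line, and the 4 class II genes on neither.

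Across all genes, peaks gathered in the light phase under day feeding. Of day fed peaks, 31.3% fell in ZT0 to 4 and 30.2% in ZT4 to 8, with 5.19% in ZT8 to 12. Night fed peaks were spread from 11.7% to 21.1% per 4 h bin. With 22.6% of rows rhythmic by night feeding and 42.2% by day feeding, 1011 rows (8.89%) were rhythmic in both groups. Of these, 11.2% peaked within 3 h of the same time and 69.8% differed by 6 h or more, and their circular mean shift was -9.04 h with a wide spread (resultant length 0.44 of a possible 1). That mean was less steady than the clock's, and lay between -11.96 h (without night fed ZT0 replicate 2) and -8.17 h (without night fed ZT8 replicate 3). The slope of expression on log2 transcript length, a score that can be technical, moved with time of day as well. It averaged 0.144 at ZT4 and -0.154 at ZT20 in day fed libraries. In night fed libraries its time means ran from -0.0539 (ZT4) to 0.0953 (ZT0). What moved this length score was not tested. With this score as a term, chosen after seeing the data, 3728 rows differed in rhythm, of which 2438 were among the 4388, and 4191 were rhythmic by night and 2870 by day feeding. With it, 16 of 16 clock genes passed. With FPKM as deposited, 2103 rows differed in rhythm, and without day fed ZT16 replicate 2 the rows rhythmic by day feeding numbered 2999.

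**Figure D3:**
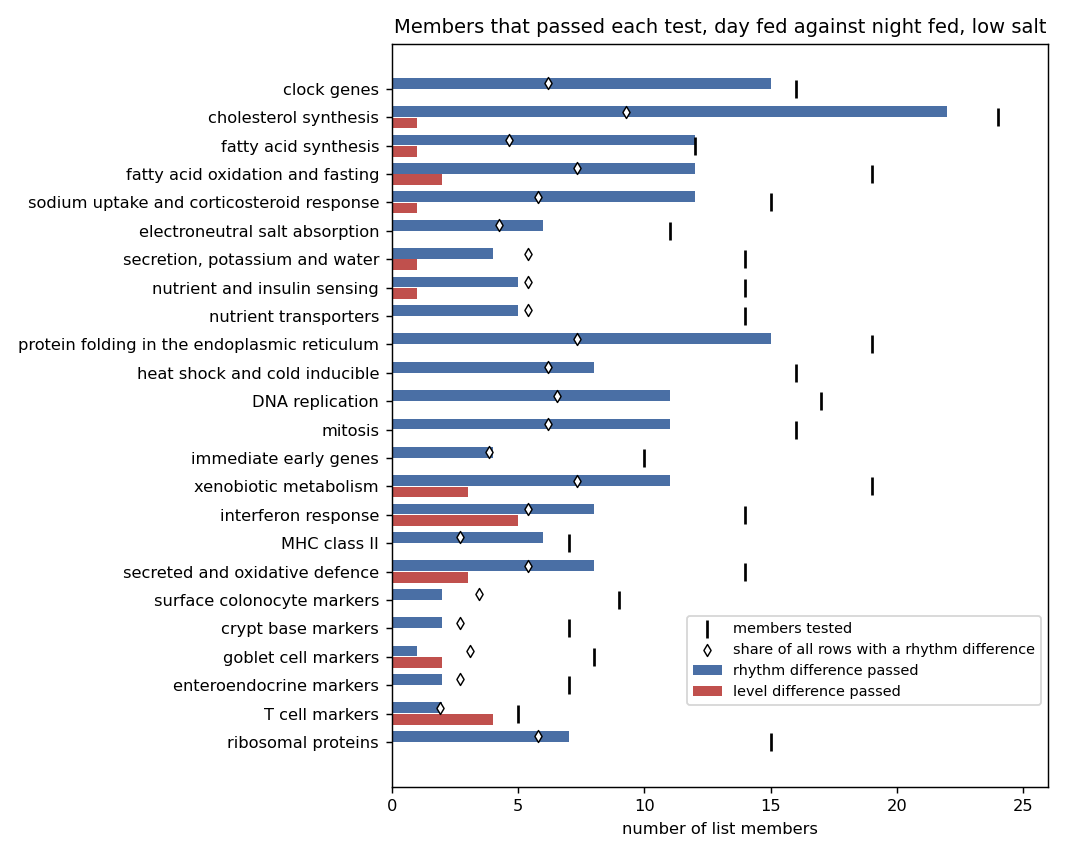
Number of members per gene list that passed the rhythm difference test (blue bars) or the level test (red bars), with black ticks for members tested and white diamonds for the number that a 38.6% share of the tested members would give. Clock, lipid synthesis and class II lists reach well past their diamonds for rhythm, and level calls reach 3 or more in the interferon, T cell, defence and xenobiotic lists.

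Most genes of sodium uptake and corticosteroid response changed in rhythm. The electrogenic route takes up sodium through the epithelial channel ENaC (Scnn1a, Scnn1b, Scnn1g) and the sodium pump, under aldosterone, the mineralocorticoid receptor Nr3c2 and the kinase Sgk1, which protects the channel from removal. Of 15 tested members, 12 differed in rhythm, against 38.6% of all rows. The mean shift of the 10 members rhythmic in both groups was -6.91 h (range -9.39 to -2.22 h). That range overlaps the one of the clock genes, and the difference between the means was not tested. Scnn1g (chr7:121734479-121768475), the gamma subunit, was low at ZT0 in night fed colons (0.177, 0.183 and 0.342 FPKM) and higher in day fed ones (2.72, 2.18 and 1.11 FPKM). At ZT16 the order turned, with 5.08, 1.12 and 2.59 FPKM by night feeding and 0.247, 0.616 and 0.625 by day feeding. Its peak was at ZT13.4 and ZT7.41 (adjusted p = 1.91e-05), although day fed values at ZT12, of 2.14, 4.92 and 4.07 FPKM, included the highest of that group. Scnn1a, the alpha subunit, moved from ZT13.7 to ZT5.67 (adjusted p = 1.17e-05), and Scnn1b, the beta subunit, did not pass (ZT14.1 and ZT11.8, adjusted p = 0.125).

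Sgk1 had 71.5, 50.1 and 60.0 FPKM at ZT16 in night fed colons and 28.6, 23.6 and 33.5 in day fed ones. At ZT0 the night fed values were 27.0, 13.5 and 18.6 and the day fed values 44.9, 57.4 and 33.3, again without overlap. Its peak moved from ZT15.2 to ZT8.14 by -7.07 ± 1.14 h (adjusted p = 0.000257). Hsd11b2, which inactivates corticosterone so that aldosterone can act, moved by -5.08 ± 0.64 h (adjusted p = 9.27e-08). It was also the list's 1 level call, 0.23 ± 0.06 log2 lower by day feeding in medians of 127 against 148 FPKM (adjusted p = 0.0211). That call ended with cosine and sine terms in place of time means and with FPKM as deposited. It also ended when any 1 of the 3 replicate numbers was left out. Tsc22d3 (GILZ), a corticosteroid target, moved by -7.08 ± 0.82 h and Usp2, a clock-driven deubiquitinase, by -8.23 ± 0.65 h. The receptor gene Nr3c2 was not rhythmic by night feeding (0.27, adjusted p = 0.372) and was by day feeding (0.71, adjusted p = 0.0019), but both calls turned with the length score as a term (0.41, adjusted p = 0.000223 by night feeding and 0.19, adjusted p = 0.19 by day feeding).

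Electroneutral salt absorption couples sodium-hydrogen exchange to chloride-bicarbonate exchange. Of 11 tested members 6 differed in rhythm, against 38.6% of all rows, and none in level. With FPKM as deposited 4 differed in rhythm, with the length score as a term 4, and without a replicate number 3 to 5. Slc26a3 (DRA), the main chloride-bicarbonate exchanger of the colon surface, had 212, 136 and 174 FPKM at ZT16 by night feeding and 78.0, 41.0 and 73.8 by day feeding. At ZT4 the night fed values were 113, 65.7 and 53.2 and the day fed values 195, 211 and 232. Its peak moved from ZT14.4 to ZT6.08 by -8.31 ± 1.10 h (adjusted p = 4.47e-06). Car2, a carbonic anhydrase that supplies bicarbonate and protons, moved by -8.95 ± 0.52 h (adjusted p = 1.44e-15). Slc9a3r1, a scaffold for the sodium-hydrogen exchanger, moved by -6.20 ± 0.96 h. In the list of secretion, potassium and water genes, 4 of 14 differed in rhythm, near the 38.6% of all rows; Atp12a, the colonic potassium pump, was among them (-7.10 ± 1.38 h, adjusted p = 0.00152).

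Lipid synthesis genes that were rhythmic in both groups peaked close to 12 h apart. SREBP factors switch on the genes of fatty acid and cholesterol synthesis after feeding, and fatty acid oxidation genes answer to PPAR alpha in fasting. All 12 fatty acid synthesis genes tested differed in rhythm, against 38.6% of all rows. The 6 genes rhythmic in both groups moved from a mean peak of ZT19.1 to ZT6.44. With FPKM as deposited, 7 of the 12 differed. Fasn (chr11:120805846-120824547), fatty acid synthase, had 24.7, 30.6 and 27.2 FPKM at ZT20 by night feeding and 12.8, 16.0 and 13.7 by day feeding. At ZT4 it had 17.9, 12.6 and 10.97 by night feeding and 25.9, 30.2 and 30.9 by day feeding, a full exchange. The rhythm difference was 1.03 (adjusted p = 4.20e-08), and the amplitudes of 0.44 ± 0.09 and 0.59 ± 0.09 were not lower by day feeding as those of clock genes were. With the length score as a term, Fasn had amplitudes of 0.37 by night feeding and 0.33 by day feeding. A lower amplitude by day feeding was found in 4 of the 12 list members, and in 7 with that term. Srebf1, the SREBP-1 gene, peaked at ZT19.3 and ZT7.37, Scd1, a fatty acid desaturase, at ZT20.8 and ZT8.16, and its relative Scd2 at ZT19.6 and ZT6.87 (adjusted p at most 1.21e-09 for each). Me1, malic enzyme, which makes NADPH for the pathway, was the list's level call: 1.05 to 4.84 FPKM (median 2.16) by night feeding and 2.49 to 5.19 (median 3.87) by day feeding, 0.65 ± 0.09 log2 higher (adjusted p = 2.55e-06).

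Cholesterol synthesis genes were rhythmic mainly in day fed colons. Of 24 tested genes 23 were rhythmic by day feeding and 5 by night feeding, against 42.2% and 22.6% of all rows. In rhythm 22 differed, against 38.6% of all rows. The day fed peaks of those 23 lay between ZT2.99 and ZT8.44. The median amplitude was 0.20 by night feeding and 0.52 by day feeding, whereas over all rows the medians were 0.15 and 0.19. Hmgcs1, which makes HMG-CoA, is shown for its sterol element TCACCCCA, the letters through which SREBP factors act, in the 250 bases before its start (chr13:119690101-119690350, plus strand, GRCm38.p6).
Hmgcs1: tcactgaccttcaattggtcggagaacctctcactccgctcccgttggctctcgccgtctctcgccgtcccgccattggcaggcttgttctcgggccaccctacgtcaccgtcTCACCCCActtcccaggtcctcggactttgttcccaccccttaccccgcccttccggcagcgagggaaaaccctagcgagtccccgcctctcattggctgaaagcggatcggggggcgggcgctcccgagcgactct
Those letters, on either strand, were found in 2 of 19 windows of the list's genes (Hmgcs1 and Srebf2) and in 1.56% of all windows. Hmgcs1 had 82.3, 99.2 and 73.8 FPKM at ZT4 and 19.7, 13.9 and 23.8 at ZT16 in day fed colons. In night fed colons it had 64.4, 46.2 and 42.6 FPKM at ZT4 and 68.7, 55.4 and 42.4 at ZT16. The day fed libraries thus stood above all night fed ones at ZT4 and below them at ZT16. Its amplitude was 0.29 ± 0.10 (adjusted p = 0.0655) by night feeding and 0.84 ± 0.10 (adjusted p = 4.62e-08) by day feeding. Sqle, squalene epoxidase, had amplitudes of 0.24 and 0.77, and Lss, lanosterol synthase, 0.28 and 0.69. Dhcr7, which makes cholesterol in the last step of one branch, was rhythmic in both groups with peaks at ZT17.7 and ZT6.41 (-11.3 ± 0.58 h).

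Fatty acid oxidation and fasting genes took the opposite position in the day. Of 19 tested, 12 differed in rhythm, against 38.6% of all rows. With FPKM as deposited 8 did, and without a replicate number 8 to 9. The 6 genes rhythmic in both groups peaked at a mean of ZT9.81 by night feeding and ZT22.5 by day feeding. Acot1 (chr12:84009490-84018371), a cytosolic thioesterase induced through PPAR alpha, had 1.72, 1.83 and 0.996 FPKM at ZT16 by night feeding and 4.56, 5.33 and 4.51 by day feeding. At ZT8 the order was reversed, with 4.29, 3.51 and 2.99 by night feeding and 2.62, 1.63 and 2.31 by day feeding. Its peak moved from ZT5.86 to ZT20.1 (rhythm difference 1.04, adjusted p = 1.21e-09). It was also higher in level by 0.36 ± 0.08 log2 (adjusted p = 0.00526). That call ended with FPKM as deposited and when any 1 of the 3 replicate numbers was left out. Hadha, of the mitochondrial trifunctional protein, moved from ZT10.3 to ZT22.8 with amplitudes of 0.18 and 0.16. Ppara, itself one of the 6, peaked at ZT15.8 and ZT4.13, and its day fed rhythm did not pass with the length score as a term (adjusted p = 0.695).

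**Figure D4:**
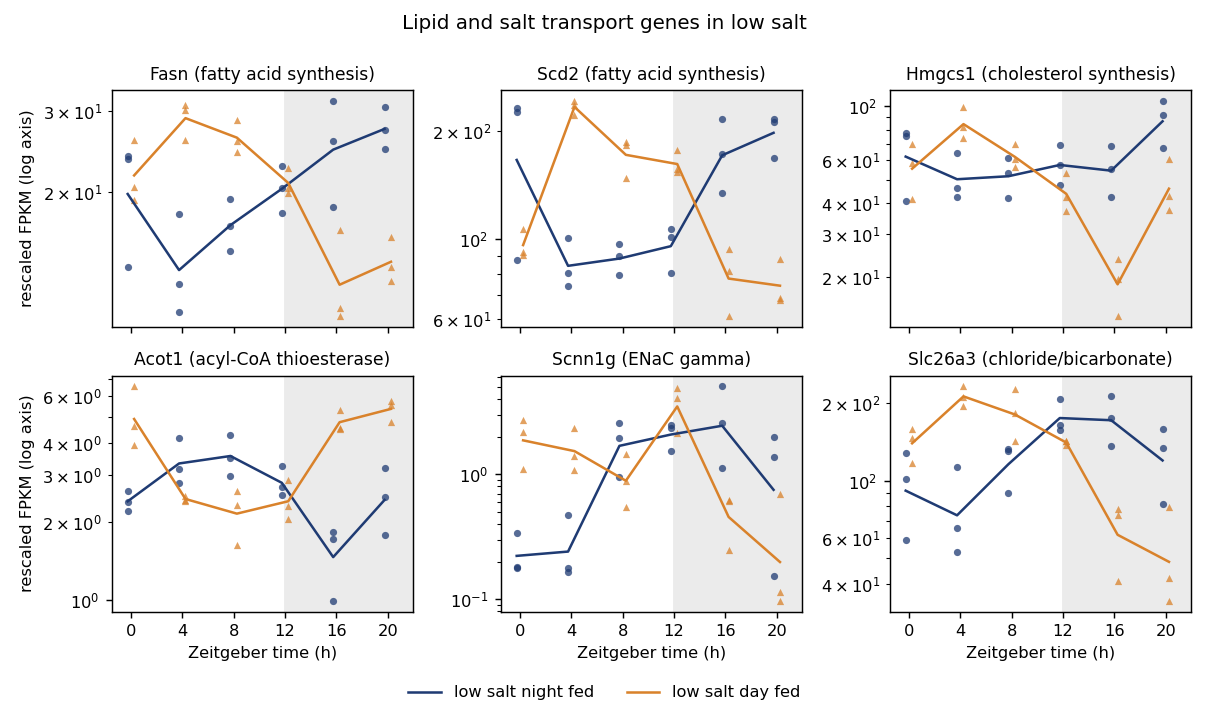
Rescaled FPKM (log axis) of Fasn, Scd2, Hmgcs1, Acot1, Scnn1g and Slc26a3 against ZT, with symbols as in the plot of clock genes. Fasn, Scd2 and Hmgcs1 are high at ZT4 and low at ZT16 in day fed colons, and Acot1 is the reverse.

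Absorption and stress genes differed less evenly. Nutrient transporters differed in rhythm in 5 of 14, and nutrient and insulin sensing genes in 5 of 14, both near the share of all rows. Slc2a5, the fructose carrier GLUT5, moved from ZT10.9 to ZT1.13 with amplitudes of 0.86 ± 0.07 and 0.36 ± 0.07 (adjusted p = 1.65e-12). Genes of protein folding in the endoplasmic reticulum differed in rhythm in 15 of 19, against 38.6% of all rows. Of these 19 genes 13 were rhythmic by night feeding, with a mean peak at ZT20.2, and 5 by day feeding. Hyou1, a folding chaperone, had 31.7, 32.7 and 16.3 FPKM at ZT16 and 7.08, 8.56 and 14.0 at ZT12 by night feeding, and 15.2, 13.3 and 23.8 at ZT16 and 16.8, 16.3 and 12.0 at ZT12 by day feeding. Of the folding genes, 9 differed with cosine and sine terms in place of time means and 5 with FPKM as deposited. Cirbp, a cold-inducible RNA-binding protein that follows body temperature, moved from ZT7.29 to ZT23.2 by -8.06 ± 0.86 h (adjusted p = 3.33e-08).

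Cell division genes had lower amplitudes in day fed colons. Mitosis genes differed in rhythm in 11 of 16, were rhythmic in 16 by night feeding and 11 by day feeding, and had a lower amplitude by day feeding in all 16 (median 0.58 and 0.37). The mean shift of the 11 rhythmic in both groups was -5.80 h, from ZT2.50 to ZT20.7. Over all rows 38.6% differed in rhythm and 40.2% had a lower amplitude by day feeding. The rhythmic shares of all rows were 22.6% by night feeding and 42.2% by day feeding. Birc5 (survivin), which guides chromosome segregation, had 35.2, 31.2 and 65.1 FPKM at ZT4 by night feeding and 22.9, 19.9 and 21.0 by day feeding. At ZT16 it had 13.1, 14.6 and 14.9 by night feeding and 32.0, 31.4 and 39.7 by day feeding (shift -8.84 ± 0.99 h, adjusted p = 4.86e-07). DNA replication genes differed in 11 of 17, and were rhythmic in 12 by night feeding (mean peak ZT20.1) and in 2 by day feeding. Neither list held a level call. With FPKM as deposited, 7 mitosis and 3 replication genes differed in rhythm, and with the length score as a term 16 and 7 did. Without a replicate number, 5 to 11 mitosis and 2 to 14 replication genes did. Markers of crypt base cells differed in rhythm in 2 of 7, not above the 38.6% of all rows, and in level in none.

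Ang4, Itln1 and Retnlb, which make secreted defence proteins, were higher by day feeding. Level calls over all rows were 118 higher by day feeding (1.04%) and 261 lower (2.29%), and 10 of the 379 exceeded 1 log2. The split was 39 higher and 44 lower with FPKM as deposited and 195 and 270 with quantile normalization. Leaving out 1 library gave 69 higher and 159 lower without night fed ZT8 replicate 1, 179 higher without night fed ZT0 replicate 2 and 432 lower without night fed ZT8 replicate 3. Of 14 defence genes tested, 3 were higher by day feeding and none lower: Ang4, Itln1 and Retnlb. Ang4 (chr14:51763878-51773590), a secreted ribonuclease that kills bacteria, ran from 15.9 to 461 FPKM (median 66.2) by night feeding and from 214 to 1389 (median 519) by day feeding. It was higher by day feeding at all 6 times, by 2.92 ± 0.35 log2 or 7.58-fold (adjusted p = 1.65e-07), with overlapping ranges. Itln1 (chr1:171518122-171535294), intelectin, a lectin for microbial sugars, ran from 0.718 to 12.9 (median 1.71) and from 7.95 to 48.8 (median 12.8), a difference of 2.30 ± 0.28 log2 (adjusted p = 1.65e-07). Retnlb (chr16:48816856-48818892), a goblet cell protein that acts on bacteria, ran from 62.7 to 1226 (median 232) and from 505 to 2178 (median 829), 1.87 ± 0.22 log2 higher (adjusted p = 9.41e-08). Retnlb was higher by day feeding at 5 of 6 times. Leaving out any 1 library, or any replicate number, kept all 3 calls. Ang4 belongs to a family of near-identical genes, so its reads may be shared with relatives.

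Among the largest rises of 1 sign at all 6 times, Pnliprp2, a pancreatic-type lipase, had medians of 0.761 and 8.79 FPKM (2.54 ± 0.24 log2, adjusted p = 1.58e-10), and Clps, colipase, 19.5 and 38.8 (1.19 ± 0.17 log2). Reg4, a goblet and deep crypt cell lectin, had medians of 179 and 389 (1.09 ± 0.17 log2), Clca1, a mucus-processing protein of goblet cells, 346 and 597 (0.93 ± 0.14 log2), and Mptx1, a pentraxin, 1902 and 3342 (0.92 ± 0.19 log2). Pla2g4c, an intracellular phospholipase, had medians of 1.48 and 19.5 FPKM with a wide night fed range of 0.385 to 37.2 (2.54 ± 0.40 log2, adjusted p = 5.92e-05). Goblet markers as a list did not move: 1 of 8 was higher (Clca1), 1 was lower (Atoh1), and the list's median level difference was 0.01. The level calls of Atoh1, Hmgcs1, Vnn1, Cited2 and Kcnma1 and of the xenobiotic genes Ugt1a1, Sult1b1 and Gstm1 (adjusted p from 0.0285 to 0.0494) each ended in some of the fits that left out 1 library. Muc2, the gel-forming mucin, kept medians of 487 and 467 FPKM.

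Of the 14 defence genes tested, 8 differed in rhythm, against 38.6% of all rows. Retnlb was one of them (rhythm difference 1.63, adjusted p = 0.00033). Reg3g (chr6:78466269-78468872), a lectin against gram-positive bacteria, had 1441, 641 and 935 FPKM at ZT0 and 1131, 319 and 1246 at ZT4 by night feeding. By day feeding it had 33.2, 68.1 and 59.2 FPKM at ZT0 and 101.3, 58.4 and 33.5 at ZT4. At both times all night fed libraries were above all day fed ones, and at the other 4 times the groups overlapped. Its amplitude was 2.54 ± 0.40 by night feeding and 0.94 ± 0.40 by day feeding, where it did not pass (adjusted p = 0.124; rhythm difference 2.60, adjusted p = 0.00173). Reg3b, its neighbour in the same family, had amplitudes of 2.38 and 0.76 (adjusted p = 0.00683). Duoxa2, which matures the hydrogen peroxide producing oxidase DUOX2, had 45.6, 48.6 and 43.7 FPKM at ZT0 by night feeding and 10.1, 9.83 and 8.93 by day feeding. At ZT20 the order turned, with 7.76, 5.30 and 4.82 against 24.5, 20.5 and 30.2 (rhythm difference 1.84, adjusted p = 3.17e-07). Socs3, a feedback inhibitor that STAT3 switches on, peaked at ZT3.13 and ZT19.6 with amplitudes of 1.49 and 0.68 (adjusted p = 1.39e-06). Clca4b and Lrg1 were rhythmic by night feeding (2.36 and 1.90) and not by day feeding (0.27 and 0.33).

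**Figure D5:**
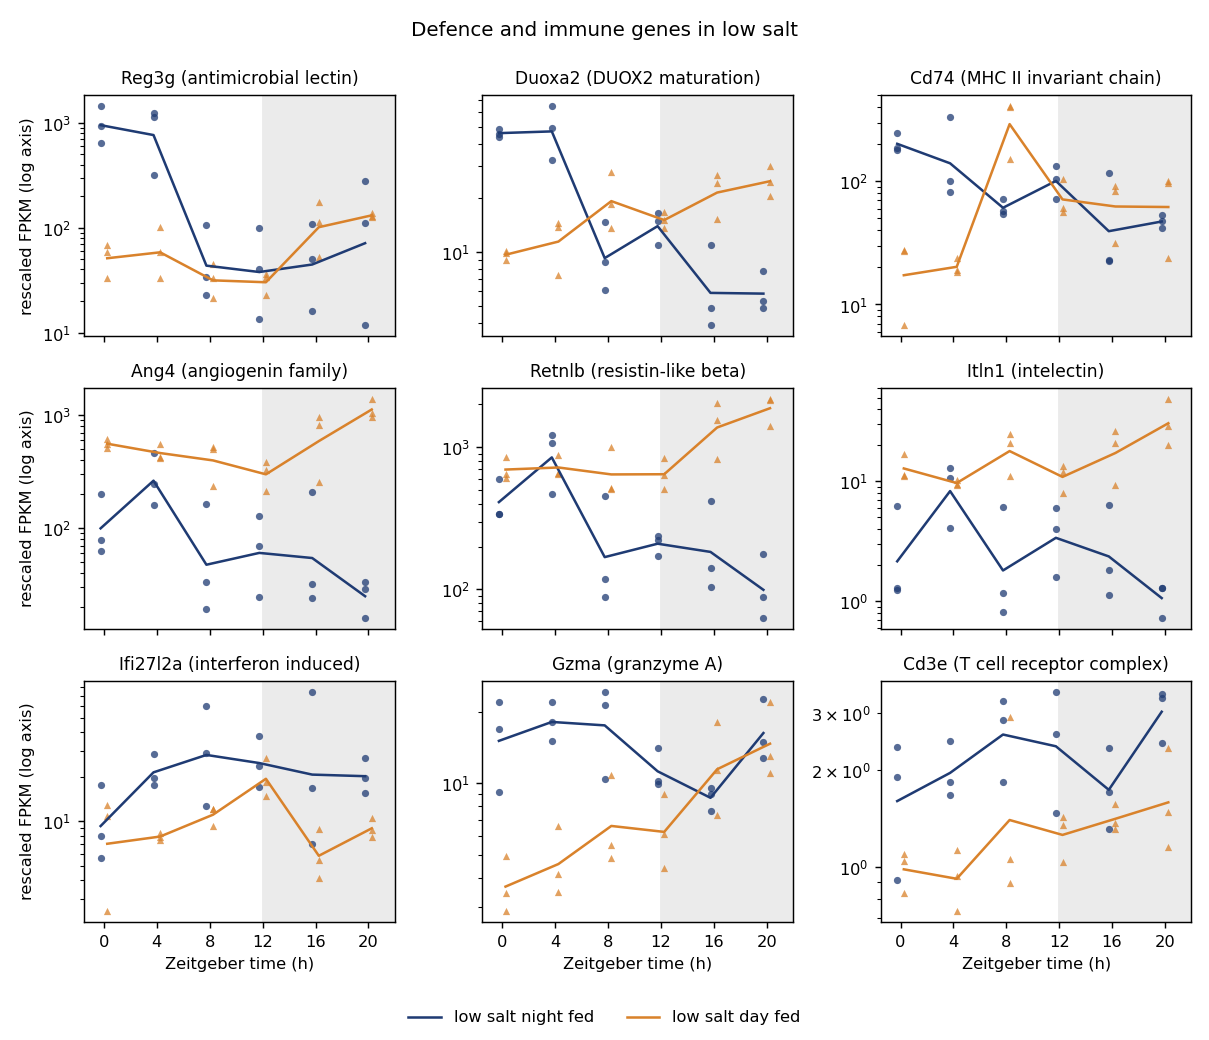
Rescaled FPKM (log axis) of 9 defence and immune genes against ZT, with symbols as in the plot of clock genes. Ang4, Retnlb and Itln1 lie higher in day fed colons, Reg3g and Duoxa2 are highest at ZT0 and ZT4 in night fed colons, and Cd74 is high at ZT8 in day fed colons.

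MHC class II genes that were rhythmic in both groups peaked later by day feeding, counted the shorter way round the cycle. Class II molecules show peptides to helper T cells and are made by myeloid cells and, under interferon gamma, by the epithelium. Of the 7 genes 6 differed in rhythm, against 38.6% of all rows, and 3 to 6 did without a replicate number. The 4 genes rhythmic in both groups moved from a mean peak of ZT3.60 to ZT11.8 (shifts of 7.52 to 8.68 h). Cd74, the invariant chain, had 185, 179 and 248 FPKM at ZT0 and 54.5, 72.5 and 57.6 at ZT8 by night feeding. By day feeding it had 27.9, 6.75 and 27.4 FPKM at ZT0 and 408, 399 and 153 at ZT8, with no overlap at either time (rhythm difference 1.93, adjusted p = 0.000294). H2-Ab1 moved by 8.68 ± 1.35 h and H2-Eb1 by 8.11 ± 1.36 h. No class II gene had a level call, with a median difference of -0.40. Macrophage markers tested were 3 of 6, none with a level call. Of the 3, 2 differed in rhythm (1 with the length score as a term), against 38.6% of all rows. By day feeding 2 were rhythmic, with peaks at ZT17.4 and ZT18.2.

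The mast cell proteases Mcpt1 and Mcpt2 changed in rhythm. Mcpt1 (chr14:56017971-56020384), a protease of mucosal mast cells, had 21.1, 5.81 and 6.20 FPKM at ZT0 and 1.28, 1.29 and 1.57 at ZT16 by night feeding. By day feeding it had 1.13, 0.929 and 0.956 at ZT0 and 15.8, 21.3 and 7.03 at ZT16, so that the groups did not overlap at either time. Its peak moved from ZT4.17 to ZT16.4 (adjusted p = 1.86e-09). Mcpt2, its neighbour, moved from ZT3.69 to ZT16.6 (adjusted p = 4.61e-09).

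Of 14 interferon response genes, 5 were lower, against 2.29% of all rows, and none higher, with a median of -0.36 log2. The 5 were Ifit1, Ifit2, Usp18, Ifi27l2a and Irf9, of which Irf9 (0.22 ± 0.06 log2 lower) was named after its values were seen. Ifi27l2a (chr12:103442167-103443680), a strongly interferon-induced gene, ran from 5.69 to 74.6 FPKM (median 18.6) by night feeding and from 2.48 to 26.8 (median 9.04) by day feeding. It was lower by day feeding at all 6 times, by 1.04 ± 0.24 log2 (adjusted p = 0.0076), with overlapping ranges. Slfn5, Iigp1, Slfn2 and Gbp3 are outside this list and were picked as members of the 12 largest falls in these data. Slfn5 (chr11:82951349-82964840), a Schlafen gene of the same response, ran from 0.695 to 3.49 FPKM (median 1.64) and from 0.442 to 1.37 (median 0.788), and fell by 0.73 ± 0.10 log2 (adjusted p = 5.04e-06). Iigp1 fell by 1.24 ± 0.26, Slfn2 by 0.94 ± 0.16 and Gbp3, a guanylate-binding protein against intracellular pathogens, by 0.69 ± 0.12 log2.

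T cell markers were lower in 4 of 5 tested, Cd3e, Cd3g, Cd8a and Gzma, against 2.29% of all rows, with a median of -0.62 log2. Cd3e, a chain of the T cell receptor complex, ran from 0.917 to 3.48 FPKM (median 2.34) by night feeding and from 0.733 to 2.90 (median 1.14) by day feeding (0.61 ± 0.13 log2 lower, adjusted p = 0.00569). Gzma, a granzyme of cytotoxic lymphocytes, had 21.9, 9.18 and 17.0 FPKM at ZT0 by night feeding and 4.95, 3.44 and 2.89 by day feeding. Over all times Gzma was lower by 0.94 ± 0.21 log2 (adjusted p = 0.00692), but not at each of the 6 times. Its rhythm differed too, as did that of 2 of the 5 markers in all, against 38.6% of all rows. The rhythm call of Gzma ended without replicate number 2 and without number 3. By day feeding 3 of the 5 markers were rhythmic, with peaks from ZT16.61 to ZT16.85. The summed level of the 6 T cell markers ran from 16.6 to 43.6 FPKM (median 29.1) by night feeding and from 7.13 to 42.3 (median 13.5) by day feeding, and Cd4 stayed under 0.5 FPKM in every library. These markers moved with the interferon genes, and their part in that difference was not tested. Leaving out any 1 library left 5 to 7 interferon and 4 to 5 T cell genes lower, and leaving out a whole replicate number left 0 to 3 of each.

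Level effects of day feeding differed between the diets. The day feeding effect differed between diets for 2245 rows (19.7%). Among the 24 genes with the largest rises and falls of 1 sign at all 6 times, 22 differed between diets and 23 had the opposite sign in high-salt mice. These genes were picked for their low-salt effect, which is part of the difference between diets, so the counts are a description and are not read against the share of all rows. Ang4 was 2.92 log2 higher by day feeding in low-salt mice and 0.88 ± 0.35 lower in high-salt mice. Ifi27l2a was 1.04 lower in low-salt mice and 3.51 ± 0.24 higher in high-salt mice, and the median of the 14 interferon genes there was 2.23 log2. In high-salt mice 5 night fed libraries had scale factors under 0.6: replicates 1 to 3 of ZT8 and replicates 2 and 3 of ZT12. At ZT8 the high-salt night fed mean thus rested on such libraries alone. With cosine and sine terms and without all libraries under 0.6, 508 rows passed in all and 20 of the 22.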

How the data were processed

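Total RNA of the 36 low-salt colon libraries was made into poly(A)-selected, stranded libraries, per the labels' protocols. The deposited values are FPKM that the authors made with TopHat2 2.1.1 and Cufflinks 2.2.1 on mm10, per the submitters' processing notes. Each library was rescaled by its median ratio to the geometric mean over 6966 rows above 1 FPKM in all 126 libraries. The 11377 of 24883 rows with a mean of at least 1 FPKM in at least 1 of the study's groups were fitted with limma 3.58.1 (R 4.3.3; trend and robust) on log2(FPKM + 0.5), with 1 mean per group and time over the 72 libraries of the 4 feeding groups (48 residual degrees of freedom) and Benjamini-Hochberg adjustment. The code was tested on simulated data. Errors of log2 values and hours are SE from this fit. No 2 libraries held identical values.

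The genes described are the 12 largest rises and falls of 1 sign at all 6 times, the 20 largest rhythm differences, all clock genes, ENaC genes, Sgk1 and Nr3c2, and up to 4 members of each list by smallest adjusted p per test. Predicted genes and symbols on several rows were left out, and a few single genes that enter the counts are not reported here by name. The groups, genes and lists were chosen with earlier results of these data known. Coordinates are from GENCODE on mm10. Members of near-identical families (Reg3, Ang, Mcpt, Clca, Gsdmc) may share reads. Alternatives covered pseudocount, filter, scaling, weights, replicate block, model terms and left-out libraries.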

Additional observations from a re-analysis of the deposited data

Results flagged for a closer look

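The effect of day feeding differed between the low-salt and high-salt diets, by limma's interaction test with an adjusted p of at most 0.05, for 22 of 24 level genes and 18 of 28 rhythm genes compared. All but some clock genes were picked for a large low-salt effect, which is part of this difference, so the counts are a description. For genes that rose by day feeding on low salt, the low-salt minus high-salt difference in log2 level effect was Ang4 3.80, Pnliprp2 3.14, Pla2g4c 2.91, Itln1 2.77, Clps 2.25, Reg4 1.63, Fn1 1.33, Clca1 1.45, Mptx1 1.67, Gsdmc2 1.20 and Gsdmc 0.89. For genes that fell it was Iigp1 -3.17, Ifi27l2a -4.55, Slfn2 -2.64, Rgs1 -1.42, Nkg7 -2.17, Slfn5 -2.12, Gbp3 -2.65, Cd3e -1.40, Ifi47 -2.33 and Cd8a -1.51. The difference in rhythm effect, an amplitude in log2 units and so without sign, was Dbp 2.26, Nr1d1 2.49, Ciart 1.30, Tef 0.84, Mcpt1 3.06, Clca4b 2.95, Mcpt2 2.43, Nr1d2 1.42, Cyp4b1 2.33, Mt2 1.64, Cd74 3.25, Duoxa2 2.09, Nfil3 1.11, Per3 0.73, Arntl 0.74, Npas2 0.71 and Cry1 0.999. In high-salt mice 5 night fed libraries had scale factors under 0.6, namely replicates 1 to 3 of ZT8 and replicates 2 and 3 of ZT12. With cosine and sine terms and without libraries of scale factor under 0.6, 20 of the 22 level genes and 6 of the 18 rhythm genes passed, and the cause was not tested.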

How the results depend on the processing

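The clock shift stayed between -9.50 and -8.95 h when a replicate number was left out and between -9.32 and -9.09 h when 1 library was. The 12 largest rises and 9 of the 12 largest falls kept their calls under every alternative other than leaving out a replicate number (9 and 3 with those too), as did the 20 largest rhythm differences (17 with those). Ifi47, Mal and Sval1 were the falls that did not, and Mal was the one lost when single libraries were left out.

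With FPKM as deposited, 39 rows were higher and 44 lower by day feeding, 2103 differed in rhythm, 1050 and 2710 were rhythmic by night and by day feeding, 8495 and 7167 differed between diets in level and rhythm effect, and the shift over all rows rhythmic in both groups was -10.7 h. Quantile normalization gave 195 higher. Array weights, which ran from 0.0870 to 71.1, gave 2121 higher, 3227 lower, 9505, 9225 and 8861 for the rhythm counts, 7347 and 7275 for the diet differences and a shift of 8.84 h. Cosine and sine terms gave 71 higher, 168 lower and 321 diet differences in rhythm. Those terms without libraries of scale factor under 0.6 gave 508 and 108 diet differences.

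As alternatives chosen after seeing the data, the length score as a term gave 474 higher, 867 lower, 4191 and 2870 rhythmic rows, 2726 diet differences in rhythm (2438 of the 4388 rhythm differences kept) and a shift of -7.60 h. Under it the fitted cosine or sine difference of Clock (0.26, adjusted p = 0.0213) and Rpl19 (0.24, adjusted p = 0.00796) turned its direction. Leaving out the 2 low-salt libraries of lowest scale factor gave a shift of 10.8 h. The causes were not tested.

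Leaving out 1 library or 1 replicate number (fewer samples) gave 18 to 179 higher, 25 to 432 lower, 1503 to 5387 differing in rhythm, 988 to 3164 and 869 to 5042 rhythmic, 460 to 3447 and 119 to 816 diet differences, and shifts of -11.96 to -7.84 h. Besides the libraries named above, night fed ZT12 replicate 3 (75 higher, 171 lower), day fed ZT12 replicate 2 (161 lower), day fed ZT16 replicate 2 (75 and 165) and day fed ZT20 replicate 3 (171 lower) each moved a level count by over 1.5 times.

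Replicate numbers did not pair the libraries: the mean correlation was -0.0224 for the same number and 0.0103 for others, and 3 of 18 pairs exceeded 0.1. With the replicate block, 115 rows were higher, 260 lower and 4319 different in rhythm. The files hold no counts, so read depth sets no stated limit. The number of libraries limits the precision.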
